A study of Homo sapiens with 12 samples.

Results

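The genes described are 10 enzymes that make serine, glycine, asparagine and proline, break glycine down or pass on the one-carbon units that serine gives: PHGDH, PSAT1, PSPH, SHMT2, MTHFD2, ALDH1L2, GLDC, ASNS, ALDH18A1 and PYCR1. They were taken by name from 60985 gene names in the deposited tables, and each had a row in both. Expression was measured by RNA sequencing of total RNA, in 12 libraries of LP-1 and U266 cells, a pair of established lines of multiple myeloma, the cancer of bone marrow plasma cells. Both are labelled WT in genotype. Cells of each line were kept for 12 h in RPMI medium with serum and either dihydroartemisinin (DHA) at its IC50 or an equal amount of the solvent DMSO. DHA is an antimalarial drug of the artemisinin class. The sources used here do not give the concentration used for either line. The 4 groups (LP-1 with DMSO, LP-1 with DHA, U266 with DMSO and U266 with DHA) held 3 libraries each. Nothing states that the 3 came from separate cultures, so p-values measure only how these samples vary, possibly for technical reasons. The comparison asks which transcripts respond to the drug in each line.

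Serine is made from the glycolytic intermediate 3-phosphoglycerate in a chain of reactions: PHGDH oxidises it, PSAT1 transfers an amino group from glutamate, and PSPH removes the phosphate. In mitochondria SHMT2 splits serine into glycine and a one-carbon unit carried by folate, MTHFD2 oxidises that unit, MTHFD1L releases it as formate for the cytosol, and ALDH1L2 burns it to carbon dioxide with formation of NADPH. GLDC is the decarboxylase of the glycine cleavage system, which takes glycine apart. ASNS makes asparagine from aspartate and glutamine, ALDH18A1 turns glutamate into the precursor of proline, and PYCR1 completes proline inside mitochondria. ASNS, PHGDH, PSAT1, SHMT2 and MTHFD2 are textbook targets of ATF4, the transcription factor translated when the stress kinases of the integrated stress response phosphorylate the initiation factor eIF2.

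Promoter windows, from 250 bases before to 50 after a start site, were found in the RefSeq table (GRCh38.p14) for 6 of the 10 members: ASNS, PHGDH, PSAT1, MTHFD2, GLDC and ALDH18A1. PSPH, SHMT2, ALDH1L2 and PYCR1 are named only. The C/EBP-ATF response element, the site type bound by ATF4, was searched on both strands as TGATGNAA. Of the 6 members only ASNS held a match, in 1 of its 2 windows, at -68 from the start site. MTHFD1L, the formate-releasing partner of MTHFD2 and not itself a member, held one in 3 of its 4 windows. Those windows overlap and hold the same site. Among the windows found for paralogs of members, only those of MTHFD1L held a match. Of all 35116 promoter windows 3.62% held this motif, and of 27305 gene symbols 4.46% had it in any window. To show the element in place, and windows without it, the sequences follow: the ASNS and MTHFD1L windows with the match in capitals (at -90 in MTHFD1L), then the windows of PSAT1, the most abundant member in U266, and GLDC, the member that fell in both lines, neither of which holds a match.
ASNS (chr7:97872359-97872658, minus strand): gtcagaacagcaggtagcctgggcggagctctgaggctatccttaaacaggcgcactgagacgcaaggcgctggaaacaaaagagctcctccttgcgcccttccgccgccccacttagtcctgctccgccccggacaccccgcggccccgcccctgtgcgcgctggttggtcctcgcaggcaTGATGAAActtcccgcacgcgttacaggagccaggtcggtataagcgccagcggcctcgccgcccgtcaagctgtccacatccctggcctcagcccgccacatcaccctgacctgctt
MTHFD1L (chr6:150866197-150866496, plus strand): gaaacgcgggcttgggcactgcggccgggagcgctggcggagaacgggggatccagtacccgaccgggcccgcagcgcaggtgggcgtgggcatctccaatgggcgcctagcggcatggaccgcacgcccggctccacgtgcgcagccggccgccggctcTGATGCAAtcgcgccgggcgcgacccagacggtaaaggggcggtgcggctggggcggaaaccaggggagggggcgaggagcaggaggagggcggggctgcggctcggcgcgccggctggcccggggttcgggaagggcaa
PSAT1 (chr9:78296875-78297174, plus strand): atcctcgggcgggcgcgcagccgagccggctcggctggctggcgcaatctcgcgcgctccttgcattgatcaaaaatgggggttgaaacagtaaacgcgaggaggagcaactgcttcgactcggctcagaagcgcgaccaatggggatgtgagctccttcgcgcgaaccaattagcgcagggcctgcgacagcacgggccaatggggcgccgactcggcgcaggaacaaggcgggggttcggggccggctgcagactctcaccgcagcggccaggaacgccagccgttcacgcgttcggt
GLDC (chr9:6645680-6645979, minus strand): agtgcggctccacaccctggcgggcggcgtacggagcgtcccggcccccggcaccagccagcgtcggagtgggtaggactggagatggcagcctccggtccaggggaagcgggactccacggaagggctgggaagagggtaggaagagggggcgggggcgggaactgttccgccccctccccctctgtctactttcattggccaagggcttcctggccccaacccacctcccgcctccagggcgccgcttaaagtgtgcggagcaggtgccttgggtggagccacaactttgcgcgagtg
The antioxidant element TGACNNNGC was matched in 1 of the 6 members, MTHFD2 (16.1% of all gene symbols, 13.3% of all windows). The E-box CACGTG was matched in 1, ALDH18A1 (8.77% of all gene symbols, 7.26% of all windows). The MTHFD1L window printed here also holds CACGTG, at -115, apart from its TGATGCAA. A match is a description of letters and not evidence of binding, and promoters without one may hold sites elsewhere.

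Values are FPKM, which scale a gene's fragments by transcript length and library depth. From the steps of low values, gene-assigned reads came to 12702000 to 16448000 per LP-1 library and 10523000 to 22246000 per U266 library. Low counts were even in 39.5 to 41.0% of cases in LP-1. In U266 the share was 52.5% in DHA replicate 3 and 76.3 to 78.0% in the other libraries. The lines may therefore be counted in different units, which was not tested. In LP-1 the FPKM of all genes summed to 306658 to 325583 with DMSO and to 271277 to 274112 with DHA. Plasma cell markers were present, with 8 of 9 at 1 FPKM or more in every library of either line; SLAMF7 was below that in LP-1 and CD38 in U266. U266 DHA replicate 3 stood apart: 18399 genes were above 0, against 14682 to 14992 in the other 5 libraries of that line. Markers of other blood cells and stroma were mostly low. In U266 their summed level over 13 genes was 13.8 to 14.8 FPKM with DMSO and 9.62 to 23.6 FPKM with DHA, highest in DHA replicate 3, and none was at 0 in every library. In LP-1 the sum over 14 genes was 5.02 to 6.81 FPKM with DMSO and 2.42 to 2.65 FPKM with DHA, with PECAM1 the only one above 1 FPKM and 1 of the 14 at 0 throughout. In these bulk samples fewer cells of a type and less RNA per cell cannot be told apart, and the part of these differences in the results was not tested. The lines were deposited in tables made and normalized separately, so levels are not compared between them by any test.

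DHA raised most of these enzymes in both lines. Of 8 members tested in LP-1, 6 rose (ASNS, PHGDH, PSPH, SHMT2, MTHFD2 and PYCR1), GLDC fell and ALDH18A1 did not pass; PSAT1 and ALDH1L2 were too low to test. Of 10 members tested in U266, 8 rose, and GLDC and ALDH18A1 fell. The test was limma on log2(FPKM + 1), two-sided. Its p-values were adjusted by Benjamini and Hochberg's method across every gene tested in the line, at a threshold of 0.05. By the same test 40.2% of all genes passed in LP-1 and 40.7% in U266: 20.0% of 12514 genes were higher and 20.2% lower with DHA in LP-1, and 21.1% of 10422 genes were higher and 19.6% lower in U266. The 3 DHA libraries lay above all 3 DMSO libraries for 6 members in LP-1 (30.2% of all genes) and 8 in U266 (27.6%), and below them for 2 members in each line (28.6% and 23.9% of all genes). The members' median log2 change was 1.40 in LP-1, against 0.01 over all tested genes, and 0.85 in U266, against 0.02. Members were chosen with earlier results of these data known, so these counts and medians are a description and not a test. The members' counts stood at 6 and 1 in LP-1 and at 8 and 2 in U266 when any single library, U266 DHA replicate 3 included, was left out. The split of calls over all genes depended on scaling: 49.8% of LP-1 calls were higher, or 61.2% after rescaling to the sum of genes other than immunoglobulin and mitochondrial ones, which moved the median of all genes by 0.12. In U266 52.0% of calls were higher, or 33.9% with TMM-style scaling.

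**Figure D1:**
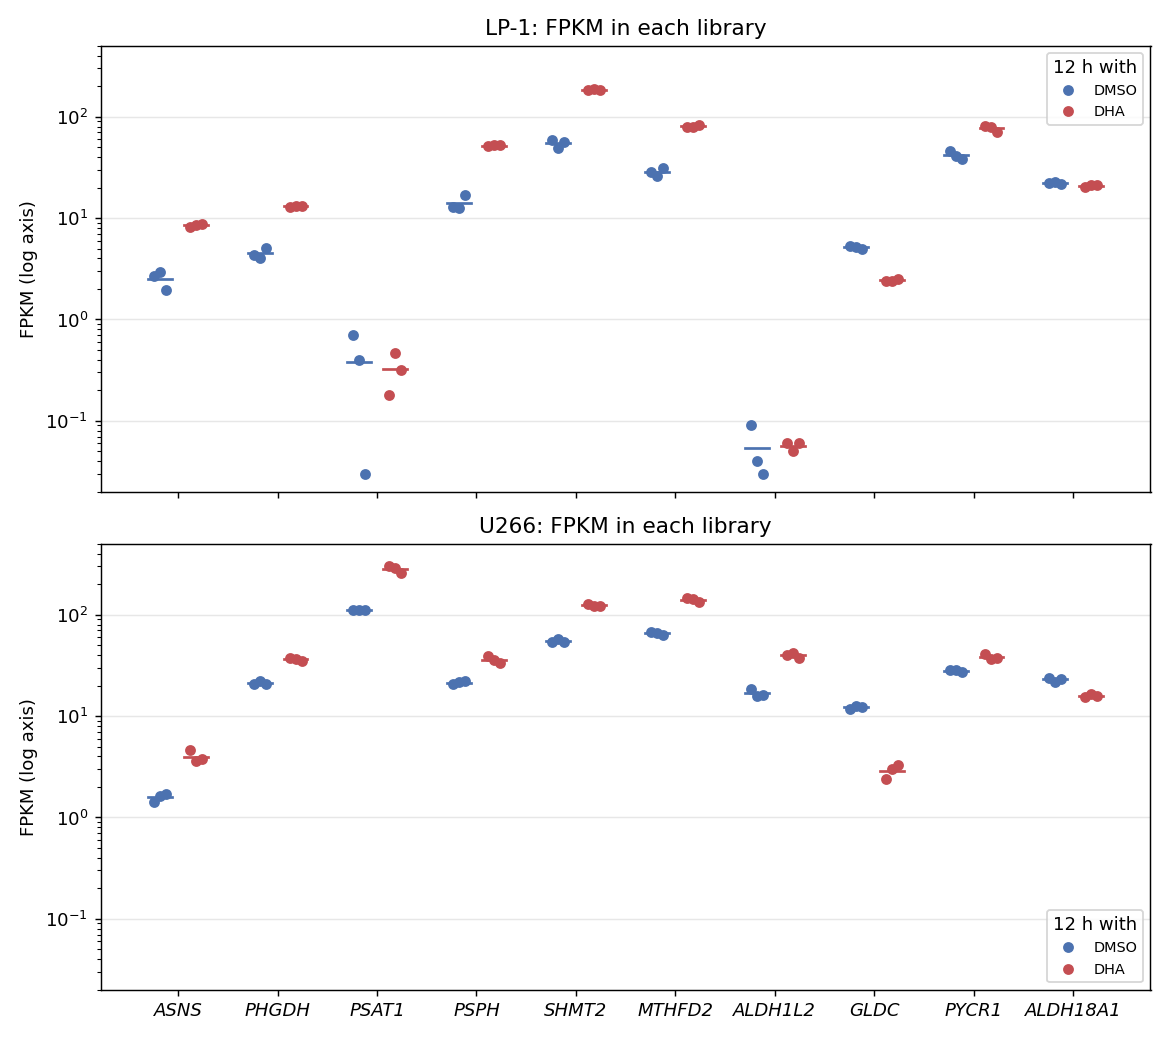
FPKM of each of the 10 members in every library (points; log axis) and the mean of each group of 3 (lines), for LP-1 above and U266 below. PSAT1 and ALDH1L2 lie below 1 FPKM in all LP-1 libraries and above 10 FPKM in all U266 libraries, and GLDC is lower with DHA in both lines.

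The entry enzyme of serine synthesis, PHGDH (ENSG00000092621, chromosome 1, 119648411 to 119744226 in GENCODE v29, GRCh38), was at 4.32, 4.08 and 5.06 FPKM in the LP-1 DMSO libraries and at 12.8, 13.2 and 13.2 FPKM with DHA. It rose 2.91-fold in mean FPKM (log2 change 1.36 ± 0.09 SE, limma adjusted p = 0.000231). In U266 PHGDH was at 20.8, 22.1 and 20.9 FPKM with DMSO and at 37.2, 37.0 and 35.0 FPKM with DHA, a 1.71-fold rise (log2 change 0.75 ± 0.05, limma adjusted p = 2.5e-06). The lowest DHA library was above the highest DMSO library in both lines.

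The phosphatase PSPH (ENSG00000146733, chromosome 7, 56011051 to 56051604), which finishes serine, had the largest log2 change of the members tested in LP-1. Its LP-1 libraries read 12.9, 12.7 and 16.9 FPKM with DMSO and 51.1, 52.4 and 52.3 FPKM with DHA (3.67-fold; log2 change 1.82 ± 0.12, limma adjusted p = 0.000222). In U266 the same gene went from 20.6, 21.5 and 22.1 FPKM to 39.4, 35.5 and 33.7 FPKM (1.69-fold; log2 change 0.73 ± 0.06, limma adjusted p = 1.35e-05). The groups did not overlap in either line. By log2 change PSPH ranked 55th of 12514 tested genes in LP-1 and 317th of 10422 in U266.

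PSAT1 (ENSG00000135069, chromosome 9, 78297143 to 78330093), the aminotransferase between these steps, was nearly absent from LP-1. Its LP-1 values were 0.71, 0.40 and 0.03 FPKM with DMSO and 0.18, 0.47 and 0.32 FPKM with DHA, which came to 1.01 to 20.9 reads per library. Summed over 3 libraries, both groups held 34 reads (exact Poisson 95% interval 23.5 to 47.5, counting error only). No difference was seen in LP-1, and one within these intervals was not detectable at this depth. All 4 PSAT1 pseudogenes listed in the LP-1 table were at 0. In U266 PSAT1 was the most abundant member, at 111, 111 and 111 FPKM with DMSO and 303, 289.6 and 260.4 FPKM with DHA. It rose 2.56-fold there, the largest rise among the members in that line (log2 change 1.34 ± 0.06, limma adjusted p = 1.09e-07). In U266 the FPKM ratio of PSAT1 to PHGDH moved from 5.22 ± 0.178 to 7.80 ± 0.351 (mean ± SD, n = 3 libraries), while that of PSPH to PHGDH was 1.00 ± 0.0448 and 0.993 ± 0.0570. In LP-1 the ratio of PSPH to PHGDH went from 3.14 ± 0.175 to 3.98 ± 0.00982.

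SHMT2 (ENSG00000182199, chromosome 12, 57229327 to 57234935), which opens the mitochondrial folate branch, was the most abundant member in LP-1. It was at 58.5, 49.4 and 55.9 FPKM with DMSO and at 183, 188 and 184 FPKM with DHA in that line (3.39-fold; log2 change 1.75 ± 0.09, limma adjusted p = 0.000115). U266 held 54.1, 57.8 and 53.9 FPKM with DMSO and 128, 122 and 122 FPKM with DHA (2.25-fold; log2 change 1.15 ± 0.05, limma adjusted p = 8.33e-08). The DHA libraries lay well above the DMSO libraries in each line, with a narrow spread within groups.

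The dehydrogenase MTHFD2 (ENSG00000065911, chromosome 2, 74198562 to 74217565), which acts next on the folate unit, went from 28.2, 25.9 and 31.4 FPKM to 80.0, 79.8 and 83.5 FPKM in LP-1 (2.84-fold; log2 change 1.48 ± 0.09, limma adjusted p = 0.000194). In U266 it went from 67.0, 66.4 and 63.7 FPKM to 147, 141 and 133 FPKM (2.14-fold; log2 change 1.08 ± 0.05, limma adjusted p = 1.73e-07). Neither line showed overlap between the groups.

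ALDH1L2 (ENSG00000136010, chromosome 12, 105019784 to 105084577), the NADPH-forming exit of the mitochondrial branch, followed PSAT1 in being almost unexpressed in LP-1. It read 0.09, 0.04 and 0.03 FPKM with DMSO and 0.06, 0.05 and 0.06 FPKM with DHA, or 3.94 to 10.3 reads per library. Its U266 values were 18.6, 16.0 and 16.0 FPKM with DMSO and 40.5, 42.3 and 37.4 FPKM with DHA (2.38-fold; log2 change 1.20 ± 0.07, limma adjusted p = 8.94e-07). Every U266 DHA library exceeded every DMSO library.

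GLDC (ENSG00000178445, chromosome 9, 6532464 to 6645783), which breaks glycine down, fell in both lines. In U266 it was at 11.6, 12.7 and 12.3 FPKM with DMSO and at 2.37, 3.02 and 3.31 FPKM with DHA, 4.20-fold lower (log2 change -1.76 ± 0.10, limma adjusted p = 6.15e-07). This was rank 1 among the falls of 10422 tested genes, and the rank ran from 1 to 10 over the 16 alternatives, with 10 at a pseudocount of 5. In LP-1 GLDC went from 5.35, 5.15 and 4.92 FPKM to 2.42, 2.39 and 2.50 FPKM, 2.11-fold lower (log2 change -0.84 ± 0.08, limma adjusted p = 0.000634). There it ranked 848th among falls of 12514 genes. The size of both falls depended on the pseudocount: with 5 the log2 change of GLDC was -1.12 in U266 and -0.45 in LP-1, and with 0.1 it was -2.05 and -1.05. The transcribed pseudogene GLDCP1, listed in the LP-1 table, averaged 0.487 FPKM with DMSO and 0.123 FPKM with DHA. The sources used here do not say how reads shared by the copies were counted. Since SHMT2 makes glycine and GLDC removes it, their FPKM ratio was also taken. It was 10.6 ± 0.926 with DMSO and 75.9 ± 2.42 with DHA in LP-1, and 4.54 ± 0.139 and 43.8 ± 9.17 in U266. SHMT2 was higher and GLDC lower in every DHA library of both lines, so the groups of this ratio could not overlap. The separation adds nothing to the results of the single genes. The exact two-sided permutation p of the ratio was therefore 0.1 in each line, the smallest that 3 against 3 libraries allow. Ratios of 7 gene pairs were computed in each line, 14 in all, so that the Benjamini-Hochberg adjusted permutation p was 0.117 for these; no ratio could pass in this design.

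ASNS (ENSG00000070669, chromosome 7, 97852118 to 97872542), with the element printed above in 1 of its windows, was expressed at a low level in both lines. It read 2.66, 2.92 and 1.96 FPKM with DMSO and 8.19, 8.62 and 8.67 FPKM with DHA in LP-1, a 3.38-fold rise (log2 change 1.44 ± 0.12, limma adjusted p = 0.000454). In U266 it read 1.41, 1.63 and 1.70 FPKM with DMSO and 4.61, 3.60 and 3.74 FPKM with DHA, a 2.52-fold rise (log2 change 0.95 ± 0.12, limma adjusted p = 0.000162). No DHA library fell within the DMSO range. The pseudocount of 1 compresses a gene at this level: with 0.1 the log2 change was 1.74 in LP-1 and 1.28 in U266, and with 5 it was 0.85 and 0.45.

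Proline synthesis was split between its steps. PYCR1 (ENSG00000183010, chromosome 17, 81932384 to 81942412), the last step, was at 46.3, 40.6 and 38.0 FPKM with DMSO and at 80.2, 78.6 and 71.1 FPKM with DHA in LP-1 (1.84-fold; log2 change 0.87 ± 0.10, limma adjusted p = 0.00147). In U266 it was at 28.3, 28.8 and 27.3 FPKM and at 41.1, 36.7 and 37.4 FPKM (1.36-fold; log2 change 0.43 ± 0.06, limma adjusted p = 0.000175). PYCR1 made the smallest rise of the members that rose in either line.

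ALDH18A1 (ENSG00000059573, chromosome 10, 95605929 to 95656706), the first step of the same route, did not rise. In LP-1 it was at 22.0, 22.6 and 21.6 FPKM with DMSO and at 20.4, 21.0 and 21.3 FPKM with DHA. It did not pass there (log2 change -0.07 ± 0.07, limma adjusted p = 0.404), and its value turned to 0.07 with rescaling. In U266 it fell from 23.8, 21.9 and 23.2 FPKM to 15.4, 16.4 and 15.9 FPKM (1.45-fold lower; log2 change -0.50 ± 0.05, limma adjusted p = 5.97e-05). The FPKM ratio of PYCR1 to ALDH18A1 went from 1.89 ± 0.188 to 3.67 ± 0.304 in LP-1 and from 1.23 ± 0.0754 to 2.42 ± 0.220 in U266.

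**Figure D2:**
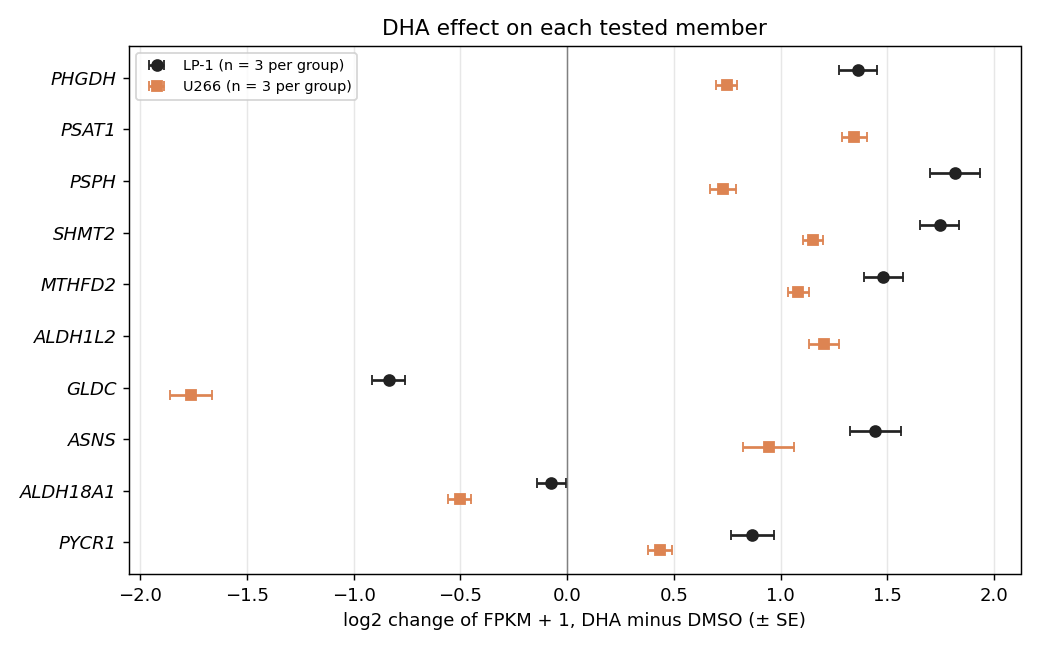
Log2 change of FPKM + 1 (DHA minus DMSO, ± SE, 3 libraries per group) of each tested member, circles for LP-1 and squares for U266. PSAT1 and ALDH1L2 have no LP-1 point because they were too low to test; every U266 point lies to the left of its LP-1 point.

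**Figure D3:**
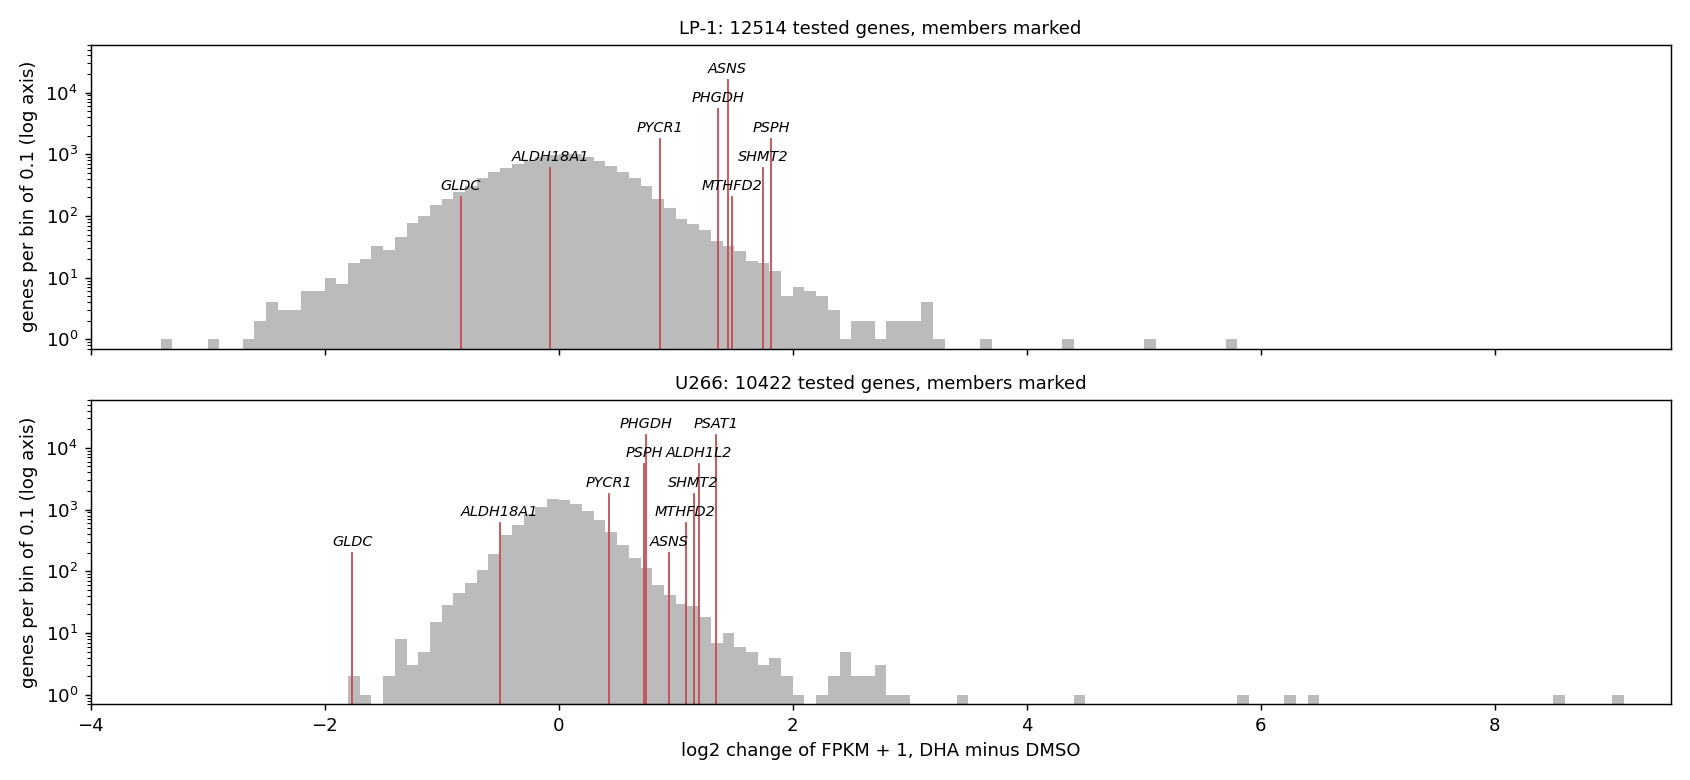
Number of tested genes by log2 change (bins of 0.1, log axis) in LP-1 above and U266 below, with lines at the members. GLDC sits at the left edge of the U266 distribution and inside the left flank of the LP-1 distribution, where it ranked 848th among the falls.

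Several members have a paralog that works in another compartment or in the same step. SHMT1, the cytosolic counterpart of SHMT2, fell in LP-1 from 4.08 ± 0.359 to 2.72 ± 0.142 FPKM (log2 change -0.45, limma adjusted p = 0.00996) and in U266 from 6.60 ± 0.385 to 5.12 ± 0.430 FPKM (-0.31, 0.0138). With a pseudocount of 5 the SHMT1 changes were -0.23 and -0.20. The LP-1 call was lost without DHA replicate 2 (adjusted p = 0.052; 0.000823 to 0.052 over all alternatives) and the U266 call without DMSO replicate 1 (0.0619; 0.00492 to 0.0619). The ratio of SHMT2 to SHMT1 moved from 13.4 ± 0.717 to 68.1 ± 4.52 in LP-1 and from 8.40 ± 0.730 to 24.4 ± 2.77 in U266. The DHA libraries had the higher ratio in both lines, which follows from SHMT2 being higher and SHMT1 lower in every DHA library.

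MTHFD1L (ENSG00000120254), the mitochondrial formate-releasing enzyme, rose from 6.68, 6.81 and 7.50 FPKM to 20.2, 20.9 and 21.4 FPKM in LP-1 (log2 change 1.45, limma adjusted p = 0.000115) and from 20.4 ± 0.787 to 37.2 ± 1.00 FPKM in U266 (0.83, 1.17e-06). Its cytosolic counterpart MTHFD1 fell in U266 from 9.91 ± 0.961 to 7.75 ± 0.195 FPKM (log2 change -0.32, limma adjusted p = 0.00826). In LP-1 MTHFD1 passed narrowly in the other direction, from 7.22 ± 0.855 to 9.13 ± 0.211 FPKM (0.31, adjusted p = 0.0456), and 8 of 16 alternatives kept that call (adjusted p 0.0108 to 0.141). Among those that did not, adjusted p was 0.0706 when DMSO replicate 1 was dropped, and 0.133, 0.12 and 0.141 when DHA replicates 1, 2 and 3 were dropped in turn. The ratio of MTHFD1L to MTHFD1 moved from 0.985 ± 0.190 to 2.28 ± 0.0595 in LP-1 and from 2.07 ± 0.172 to 4.80 ± 0.193 in U266.

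MTHFD2L, a close relative of MTHFD2 in mitochondria, was at 2.77 ± 0.187 and 3.48 ± 0.0874 FPKM in LP-1 (log2 change 0.25, limma adjusted p = 0.0492). Of 14 alternatives 6 kept that call (adjusted p 0.0115 to 0.163), and with a pseudocount of 5 the log2 change was 0.13. The adjusted p of MTHFD2L was 0.14 and 0.0833 on dropping DMSO replicates 1 and 2, and 0.163, 0.153 and 0.122 on dropping DHA replicates 1, 2 and 3. In U266 MTHFD2L stayed below 1 FPKM and was not tested.

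PYCR3, a cytosolic proline-forming enzyme, did not pass in LP-1 (log2 change -0.12, limma adjusted p = 0.531) or U266 (-0.17, 0.533), and in U266 it passed without DHA replicate 3 (-0.41, 0.0211; 0.0211 to 0.953 over all alternatives). Its sign turned without LP-1 DMSO replicate 3 (0.02) and without U266 DHA replicate 2 (0.02). ALDH1L1, the cytosolic relative of ALDH1L2, was below the test's filter in both lines: its 3 LP-1 DHA libraries were at 0, which allows up to 3 reads each, and the U266 libraries lay between 0.277 and 1.01 FPKM. In all, 3 of 6 tested paralogs rose and 1 fell in LP-1, and 1 of 5 rose and 2 fell in U266. The shares over all genes were 20.0% higher and 20.2% lower in LP-1, and 21.1% and 19.6% in U266.

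**Figure D4:**
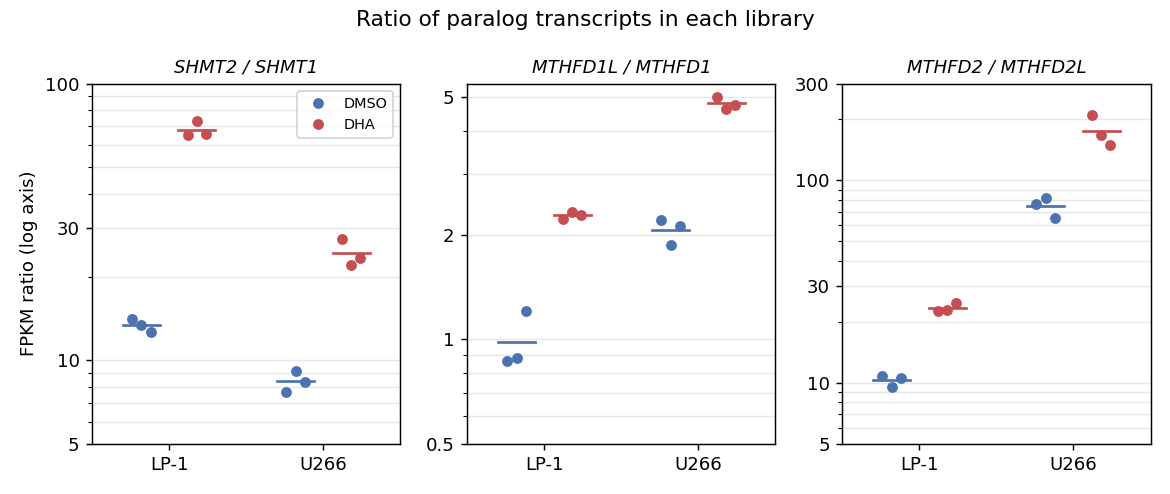
FPKM ratio of a member or of MTHFD1L to its paralog in each library (points; log axes) with group means of 3 (lines). The DHA libraries lie above the DMSO libraries in all 3 ratios and both lines, for example at 65.3 to 73.3 against 12.7 to 14.1 for SHMT2 over SHMT1 in LP-1. Where the upper gene rose and its paralog fell without overlap, as for SHMT2 and SHMT1, this follows from the single genes.

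Whether the DHA effect differed between the lines was tested in limma as an interaction across the 12 libraries. It covered the 8930 genes that passed the filter in each line, and each effect was taken within its own table. All 8 members tested in both had a lower log2 change in U266, with adjusted p under 0.05: the 6 that rose in both lines rose less there, and GLDC and ALDH18A1 lay further below 0. Of all genes 34.6% passed, 18.5% lower and 16.1% higher in U266. PSPH differed most (U266 minus LP-1, -1.09 ± 0.14 on the log2 scale, limma adjusted p = 0.000159), followed by GLDC (-0.93 ± 0.13, 0.000258). PHGDH differed by -0.62 ± 0.10 (adjusted p = 0.000906), or by -0.28 with a pseudocount of 5 and -0.76 with 0.1. SHMT2 differed by -0.59 ± 0.10 (0.00113). The differences of PYCR1 (-0.43 ± 0.12, 0.0139), ALDH18A1 (-0.43 ± 0.08, 0.00226) and MTHFD2 (-0.40 ± 0.11, 0.0139) were smaller. ASNS passed narrowly (-0.50 ± 0.16, 0.0304), and 11 of 20 alternatives kept its call (adjusted p 0.00268 to 0.11). With a pseudocount of 0.1 it was -0.46 (0.11). Adjusted p for ASNS was 0.0525, 0.0675 and 0.0669 on leaving out LP-1 DHA replicates 1, 2 and 3 in turn. It was 0.0616 and 0.0703 on leaving out U266 DMSO replicates 2 and 3, and 0.0692 and 0.0603 on leaving out U266 DHA replicates 2 and 3. Over all genes the median absolute log2 change of these 8930 genes was 0.32 in LP-1 and 0.19 in U266. Drug concentration, table and line cannot be told apart in this contrast. In U266 DHA replicate 3 was the DHA library nearest to the DMSO mean for 7 of the 10 members, DHA replicate 2 for 3 and DHA replicate 1 for 0.

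The part of ATF4 in the members' changes was not tested. Its mRNA rose in LP-1 from 244 ± 51.4 to 379 ± 9.26 FPKM (log2 change 0.65, limma adjusted p = 0.0183), a call that 11 of 16 alternatives kept (adjusted p 0.000123 to 0.0718). Dropping DMSO replicate 1 gave 0.0676, and dropping DHA replicates 1, 2 and 3 gave 0.0647, 0.0682 and 0.0718. With quantile normalization the LP-1 change of ATF4 was 1.01. In U266 it rose from 235 ± 13.4 to 420.4 ± 22.1 FPKM (0.84, 4.18e-06). TRIB3 and SESN2, further ATF4 targets, rose by more than any member, with log2 changes of 3.23 and 3.69 in LP-1 and 2.64 and 2.66 in U266. Of 15 tested genes of the ATF4 axis (ATF4, its partners, its targets and the eIF2 kinases and phosphatase subunits) 12 rose and 0 fell by limma in LP-1, with a list median of 1.39, and 12 rose and 3 fell in U266, with a median of 1.27. By comparison 20.0% of all genes were higher and 20.2% lower in LP-1, and 21.1% and 19.6% in U266. This list, too, was chosen with earlier results of these data known. The kinases EIF2AK3, on the endoplasmic reticulum, and EIF2AK4, which senses uncharged tRNA, fell in U266 (log2 changes -0.45 and -0.23), and DDIT3, a transcription factor partner of ATF4, rose there from 12.8 ± 1.10 to 97.0 ± 0.706 FPKM. Values in the opposite direction, chosen after they were seen, were those of EIF2AK3 in LP-1, where it rose (0.86, limma adjusted p = 0.00208), and of EIF2AK2, the kinase activated by double-stranded RNA, which rose in U266 (1.27, 2.03e-07). The EIF2AK3 effect differed between the lines (U266 minus LP-1, -1.30, limma adjusted p = 1.96e-05).

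Enzymes that supply or use aspartate, glutamate and alanine included large rises. GPT2, the mitochondrial alanine aminotransferase, rose from 5.34 ± 0.303 to 39.1 ± 0.392 FPKM in LP-1 (log2 change 2.66, limma adjusted p = 1.61e-05) and from 11.3 ± 0.589 to 35.9 ± 1.29 FPKM in U266 (1.58, 3.09e-08). GOT1, the cytosolic aspartate aminotransferase, rose in LP-1 (log2 change 1.26) and in U266 (1.11), and ASS1, which joins citrulline to aspartate, rose in U266 (1.32) and was too low to test in LP-1. BCAT2 and ASRGL1 fell in LP-1 (-0.56 and -0.55), and SLC25A12 and GOT2 fell in U266 (-0.34 and -0.21). Of this list 6 of 13 tested genes rose and 2 fell in LP-1, and 4 of 14 rose and 2 fell in U266. All tested genes together gave 20.0% higher and 20.2% lower in LP-1, and 21.1% and 19.6% in U266.

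Among genes that use serine and glycine 4 of 10 rose and 3 fell in LP-1, and 2 of 11 rose and 2 fell in U266. Shares for all genes were 20.0% higher and 20.2% lower in LP-1, and 21.1% and 19.6% in U266. CTH, which makes cysteine from cystathionine, rose from 6.43 ± 0.622 to 28.1 ± 1.58 FPKM in U266 (log2 change 1.97, limma adjusted p = 4.64e-08) and from 2.37 ± 0.478 to 3.97 ± 0.585 FPKM in LP-1 (0.57, 0.0218). SPTLC2 and SPTLC1, subunits of the enzyme that joins serine to a fatty acid, rose in LP-1 (0.55) and U266 (0.21) respectively. SFXN1, the mitochondrial serine carrier, fell in LP-1 (-0.47) and U266 (-0.50), as did GATM, which uses glycine for creatine (-0.66 and -0.34).

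Folate-handling genes had a median log2 change of 0.05 in LP-1 and -0.17 in U266, and purine synthesis genes 0.08 and -0.16. Of 11 tested folate genes 2 rose and 2 fell in LP-1, and of 10 in U266 0 rose by limma and 4 fell. Across all tested genes 20.0% were higher and 20.2% lower in LP-1, and 21.1% and 19.6% in U266. MTRR, which keeps methionine synthase active, rose in LP-1 (log2 change 0.83). The mitochondrial folate carrier SLC25A32 passed narrowly as a rise there (0.65, limma adjusted p = 0.0401). FPGS, which traps folate in cells, and the thymidylate synthase TYMS fell there (-0.38 and -0.29) and in U266 (-0.32 and -0.47). Of 9 purine synthesis genes 2 rose in LP-1, GART (0.47) and PPAT (0.32). In U266 5 of the 9 fell, with IMPDH1 (-0.74) and PAICS (-0.47) moving most.

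Around 3-phosphoglycerate, the branch point of serine synthesis, 1 of 6 glycolytic genes rose and 2 fell in LP-1, and 3 fell in U266. Over the whole set of tested genes 20.0% were higher and 20.2% lower in LP-1, and 21.1% and 19.6% in U266. PGAM1, which carries 3-phosphoglycerate on towards pyruvate, fell from 82.5 ± 12.7 to 56.4 ± 2.37 FPKM in LP-1 (log2 change -0.53, limma adjusted p = 0.0169) and from 168 ± 2.94 to 119.7 ± 3.57 FPKM in U266 (-0.49, 2.14e-05). PKM passed narrowly as a rise in LP-1 (0.27, limma adjusted p = 0.0431) and fell in U266 (-0.31). BPGM, the bisphosphoglycerate mutase, fell in LP-1 (-1.21). Of the proline and ornithine genes 1 of 5 rose and 2 fell in LP-1, and 1 of 6 rose and 2 fell in U266. P4HA2, a prolyl hydroxylase subunit that modifies collagen, fell in LP-1 from 67.3 ± 3.88 to 18.8 ± 0.612 FPKM (-1.78), with P4HA1 at -0.50; in U266 P4HA1 rose (0.34). ODC1, which makes polyamines from ornithine, passed narrowly as a rise in LP-1 (0.43, limma adjusted p = 0.0468). PEPD, which frees proline from dipeptides, and OAT, an alternative source of the proline precursor, fell in U266 (-0.27 and -0.19).

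Plasma cell markers moved as well. Of 8 tested in LP-1 2 rose and 5 fell, with a median log2 change of -0.64, and in U266 0 of 8 rose by limma and 5 fell, with a median of -0.32. Genes at large were 20.0% higher and 20.2% lower in LP-1, and 21.1% and 19.6% in U266. SDC1, the surface proteoglycan CD138 of plasma cells, fell from 30.9 ± 1.72 to 5.16 ± 0.484 FPKM in LP-1 (-2.37) and from 192 ± 5.15 to 88.4 ± 6.02 FPKM in U266 (-1.11). IRF4, a plasma cell transcription factor, rose in LP-1 (1.66). Of the markers of other blood cells and stroma, PECAM1 fell in LP-1 (-1.23) and HBB fell in U266 (-0.54). COL1A1 passed narrowly as a rise in U266 (0.51, limma adjusted p = 0.0491). It went from 0.897 ± 0.150 to 1.75 ± 0.633 FPKM and entered the test through its DHA libraries.

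The genes nearest to a member over the 12 libraries were found by the root mean square difference of log2(FPKM + 1), each line centred on its DMSO mean, among 8930 genes. For PHGDH these were SARS1, the seryl-tRNA synthetase (0.066), MTHFD1L (0.079) and TARS1, the threonyl-tRNA synthetase (0.086), against a median of 0.777 over all genes. For SHMT2 they included the glutamine transporter SLC1A5 (0.062) and IDH1 (0.10). MTHFD2 lay nearest to the ER chaperone genes HSPA13 (0.067) and DNAJB9 (0.093) and then to GTPBP2 (0.11). ASNS lay nearest to TES (0.11), GTPBP2 (0.11) and DEDD2 (0.12), and PSPH to SNTB1 (0.097), BEND6 (0.13) and the cysteinyl-tRNA synthetase CARS1 (0.15). PYCR1 lay nearest to DNAJA3 (0.069), DESI2 (0.079) and ADAM9 (0.081), and ALDH18A1 to the phenylalanyl-tRNA synthetase subunit FARSA (0.042), ST8SIA4 (0.042) and CDC42SE2 (0.052). For GLDC they included BMP8B (0.24) and RAB36 (0.28), the first of them the closest and farther than the closest gene of any other member tested in both lines.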

How the data were processed

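The authors deposited FPKM values in 1 table per line, keyed by Ensembl ID in LP-1 (61806 rows, of which 42054 were matched to a symbol) and by symbol in U266 (19130 rows, 18749 matched). Builds GRCm38 and mm10, which are mouse builds, are listed in the submitters' processing notes, although the genes are human. Aligner, counter and annotation: not given in the sources used here. A gene entered a line's test when 3 or more of its 6 libraries reached 1 FPKM, and log2(FPKM + 1) was fitted with limma 3.58.1 in R 4.3.3 (lmFit, eBayes with trend), a scale that understates changes of low genes. The fit was also run on simulated data with independent normal noise, which does not reproduce shifts of whole libraries. Depth was recovered from FPKM steps and GENCODE v29 exon lengths; 91.9 to 94.7% of values of up to 100 reads (in LP-1 of genes under 0.6 kb) lay within 0.1 read of a whole number, and intervals and floors of 3 reads cover counting error only. U266 column names were matched to samples by treatment and number.

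Members and gene lists were chosen with earlier results of these data known. Named genes were all members, their paralogs, ATF4, TRIB3 and SESN2, the 3 nearest genes of each member, and up to 2 called genes per list, line and direction; a few of these are not reported here. Alternatives were pseudocounts of 0.1 and 5, 2 other filters, 3 scalings (TMM-style, quantile, and without immunoglobulin and mitochondrial genes), no trend, a replicate block, 1 fit of 12 libraries, and leaving out each library.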

Additional observations from a re-analysis of the deposited data

Results flagged for a closer look

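For 8 members and 2 paralogs the DHA effect differed between the lines by the interaction test (limma, adjusted p under 0.05 over 8930 genes). As U266 minus LP-1 on the log2 scale, the members' differences were -1.09 for PSPH, -0.93 for GLDC, -0.62 for PHGDH, -0.59 for SHMT2, -0.50 for ASNS, -0.43 for PYCR1, -0.43 for ALDH18A1 and -0.40 for MTHFD2. The paralogs were MTHFD1 (-0.62, adjusted p = 0.00274), which rose in LP-1 (0.31) and fell in U266 (-0.32), and MTHFD1L (-0.62, 0.000385), which rose in both. With a pseudocount of 5 the MTHFD1L difference was -0.38 and that of PHGDH -0.28. Genes of the ATF4 axis went both ways. TRIB3 (-0.59), SESN2 (-1.03) and ATF5 (-0.95) had a smaller rise in U266, and EIF2AK3 (-1.30) rose in LP-1 and fell in U266. DDIT3 (1.06, adjusted p = 0.000654), PPP1R15A (0.34, 0.00967) and EIF2AK2 (0.98, 0.0112) had a larger log2 change in U266. ATF4 did not pass (0.18, adjusted p = 0.427). The ATF4 difference turned to -0.10 with quantile normalization.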

How the results depend on the processing

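All 17 member calls in LP-1 and U266 kept direction and call in every alternative that tested them. At a mean of at least 5 FPKM GLDC left the LP-1 test, so 0 members were lower there by limma, ASNS left the U266 test, and both left the contrast between the lines. PSAT1 and ALDH1L2 were outside the fit of all 12 libraries. With no filter these entered the contrast, and 2 members were higher in U266. Leaving out any 1 library gave 6 members higher and 1 lower in LP-1, 8 and 2 in U266, and 0 higher and 7 to 8 lower in the contrast (all by limma).

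Over all genes, 5027 were called in LP-1 (2504 higher, 2523 lower), 4241 in U266 (2203 and 2038) and 3090 in the contrast (1436 higher in U266, 1654 lower). A mean of at least 5 FPKM left fewer genes tested, with 3034 calls in LP-1 (1664 higher, 1370 lower) and 2026 in the contrast (712 higher). TMM-style scaling gave 1114 higher in U266 and 866 higher in the contrast, and rescaling gave 921 in the latter; the cause was not tested. TMM-style scaling and rescaling each moved the median of the contrast by -0.13. Of contrast calls 46.5% were higher in U266, or 28.4%, 31.8% and 35.1% under TMM-style scaling, rescaling and the mean filter. The fit of all 12 libraries called 2551 in U266 (1441 higher, 1110 lower). Leaving out 1 library gave 2919 to 7073 calls in LP-1 (1367 to 3499 higher, 1543 to 3574 lower): 2919, 2920 and 2994 without DHA replicate 1, 2 or 3, and 7073 without DMSO replicate 3.

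The labels do not state that the replicate numbers pair the samples. Across genes, deviations of same-numbered libraries correlated at 0.07, 0.02 and 0.18 in LP-1 and at -0.04, -0.08 and -0.02 in U266. The value of 0.18 was the highest of all pairings, but not every library correlated best with its own number. With so few libraries per group the deviations constrain each other, so these correlations cannot decide whether the numbers pair the samples. The replicate block gave 4559 calls in LP-1, 3891 in U266 and 2885 in the contrast, with 7 members lower in U266, ASNS missing (adjusted p = 0.0567); MTHFD1 (0.0838) and MTHFD2L (0.118) were not called in LP-1.

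Depth limits PSAT1, ALDH1L2 and ALDH1L1 in LP-1, with at most 20.9 reads per library.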
